A study of Mus musculus with 8 samples.

Results

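The Hox genes are the 39 homeobox transcription factor genes that lie in 4 clusters of the mouse genome, and they were taken here as every gene named Hoxa, Hoxb, Hoxc or Hoxd with a number and nothing after it. They were 39 of the 49585 gene identifiers measured. Antisense transcripts with a Hox name were left out of this set. RNA had been sequenced from the intestine of C57BL/6 mice, with 1 library per mouse. The tissue came from 4 recipients of Klebsiella and 4 recipients of Lactobacillus, both genera of gut bacteria. The sources used here do not give the donors or strains, the dose, the duration, the age and sex of the mice, or the stretch of intestine taken. Both groups received bacteria, so neither is an untreated control. Levels are in FPKM, reads divided by the length of the gene and the library total, so they can be set side by side between genes.

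In the embryo the genes of a Hox cluster are switched on in the order in which they lie. Genes with low numbers start first and reach far forward, and genes with high numbers are restricted to the tail end of the body axis. The adult gut keeps part of this code, in the muscle and connective tissue and, for some genes, in the epithelium. Genes of the same number in different clusters are paralogs. Number 13 of the Hoxa, Hoxb and Hoxd clusters marks the hindgut end, and loss of Hoxa13 and Hoxd13 disturbs hindgut and anorectal development in mice.

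On GRCm38 the Hoxa cluster spanned chr6:52155590-52260880 with its 11 genes on the minus strand. The Hoxb cluster spanned chr11:96194316-96368256 with 10 genes, the Hoxc cluster chr15:102921103-103036852 with 9 genes, and the Hoxd cluster chr2:74668310-74765142 with 9 genes, all on the plus strand. A mean of at least 0.5 FPKM over the 8 libraries, the filter for testing, was met by 10 Hoxa, 8 Hoxb, 0 Hoxc and 6 Hoxd genes. That made 24 genes tested and 15 not tested.

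The start regions of 3 genes are shown because these genes carry the patterns described below, a mid-cluster gene that was high in only a few libraries and a pair of number 13 genes, of which 1 varied widely and 1 little. The sequences are from RefSeq on GRCm38.p6. Each is the stretch of 250 bases before the annotated start, read 5′ to 3′ on the strand of the gene. Capitals mark the letters TTTAT on either strand (ATAAA when read here), the core bound by the caudal-type factors Cdx1 and Cdx2, which act upstream of Hox genes in the mouse embryo.

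Hoxb8, chr11:96281655-96281904, plus strand: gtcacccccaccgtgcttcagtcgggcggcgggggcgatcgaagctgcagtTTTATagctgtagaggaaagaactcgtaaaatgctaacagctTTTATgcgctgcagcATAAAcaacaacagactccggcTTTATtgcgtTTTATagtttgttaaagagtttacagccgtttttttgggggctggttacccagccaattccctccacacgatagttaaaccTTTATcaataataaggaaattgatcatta
Hoxd13, chr2:74667975-74668224, plus strand: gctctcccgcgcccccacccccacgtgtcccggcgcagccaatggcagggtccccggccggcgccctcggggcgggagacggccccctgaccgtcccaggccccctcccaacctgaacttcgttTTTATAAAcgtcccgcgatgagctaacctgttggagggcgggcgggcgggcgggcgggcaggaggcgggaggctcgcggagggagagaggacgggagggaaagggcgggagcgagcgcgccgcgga
Hoxa13, chr6:52260881-52261130, minus strand: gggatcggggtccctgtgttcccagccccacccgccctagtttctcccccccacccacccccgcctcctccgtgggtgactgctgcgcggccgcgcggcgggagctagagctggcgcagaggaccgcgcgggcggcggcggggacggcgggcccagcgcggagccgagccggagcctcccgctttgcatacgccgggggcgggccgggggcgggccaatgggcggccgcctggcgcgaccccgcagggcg

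The window of Hoxb8 held 6 TTTAT matches, that of Hoxd13 held 2, which overlap, and that of Hoxa13 held 0. At least 6 matches were found in 0.502% of 32841 mouse windows of 300 bases (250 before and 50 after the start), the window of Hoxd4 among them. Over the family the motif was no more frequent than elsewhere. It was in 9 of the 24 windows available for 22 of the Hox genes (37.5%), against 40.0% of all windows. The CCAAT box was in 15 of the 24 (62.5%), against 37.4% of all windows. TATAAA, which contains a TTTAT match on the other strand, was in 4 of the 24 (16.7%), against 13.6%. TTTACG, a core of the type bound by proteins of the high-numbered genes, was in 2 of the 24, against 3.03%, and was searched on both strands like the others. Hox windows held a median of 14.5 CG dinucleotides, against 7 in all windows, and the CG-rich window of Hoxa13 was matched or exceeded by 1.93% of all windows. These are matches of letters, and nothing was measured at these sites.

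The libraries held 15783925 to 21603065 reads as the total behind FPKM, and 9615 to 22120 of them fell in Hox genes, or 0.0554% to 0.102%. Each epithelial marker list member was detected, and the summed level of the 9 epithelial markers was 10253 to 12420 FPKM in Klebsiella and 10140 to 11527 FPKM in Lactobacillus recipients. Of the small-intestinal markers, Fabp1 reached at most 0.444 FPKM and Apoa4 at most 0.0349 FPKM, while Apob was at 7.18 to 27.2 FPKM and Fabp6 at 3.04 to 11.98 FPKM. Slc10a2 reached 6.09 FPKM and Alpi 5.35 FPKM in the highest library. The 8 squamous markers of the anal canal summed to 3.48 to 6.05 FPKM. In whole tissue, fewer cells of a type and less RNA per cell cannot be told apart.

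Libraries of 1 group were not alike in their Hox profile. Klebsiella replicate 3 and Lactobacillus replicate 2, a library of each group, stood apart from the other 6 for the middle of the Hoxb cluster, and Klebsiella replicates 2, 3 and 4 had little of the end of the Hoxd cluster. Results that rest on the first pair are given with and without it. The choice of the Hox genes, and of these libraries, followed earlier results of the same data.

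**Figure D1:**
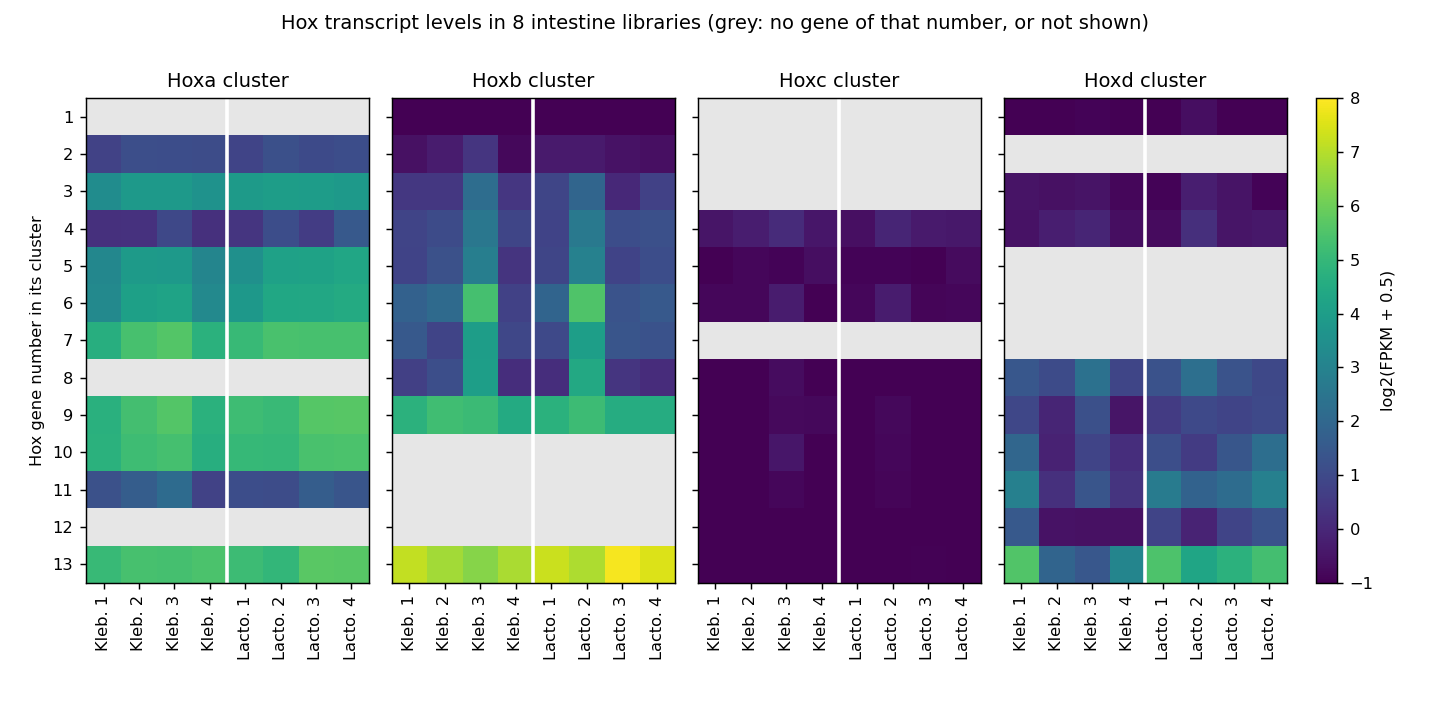
Level of each Hox gene as log2(FPKM + 0.5) (colour) by gene number in its cluster (rows) and library (columns, Klebsiella recipients left and Lactobacillus recipients right of the white line), with grey where a cluster has no gene of that number or none is shown. Hoxb13 is the brightest row, the Hoxc panel is dark, and the Hoxb panel has a bright column at Klebsiella replicate 3 and at Lactobacillus replicate 2.

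The family was dominated by its high-numbered members. Genes of numbers 9 to 13 made up 57.1% to 82.7% of the summed Hox FPKM of a library, and numbers 1 to 3 made up 3.24% to 4.64%. Number 13 alone made up 27.6% to 58.0%. By cluster, Hoxa held 36.7% to 56.0% of the summed Hox FPKM and Hoxb 41.6% to 52.7%. The Hoxd cluster ranged from 1.90% in Klebsiella replicate 2 to 16.4% in Klebsiella replicate 1. The Hoxc cluster held at most 0.312%.

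Hoxb13, the last gene of its cluster (chr11:96194316-96197447), was the highest Hox gene in every library. It measured 144, 107, 81.0 and 114 FPKM across Klebsiella replicates 1 to 4, against 156, 119, 237 and 182 FPKM across Lactobacillus replicates 1 to 4. The groups overlapped, but 3 of the 4 Lactobacillus libraries were above every Klebsiella library. Its mean was 112 ± 25.8 FPKM in Klebsiella and 173 ± 49.7 FPKM in Lactobacillus recipients (SD, n = 4 each), and its log2 difference of -0.62 (SE 0.23) did not pass the test (limma adjusted p 0.774, unadjusted p 0.0245). Without the pair of libraries that stood apart the log2 difference was -0.64.

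Hoxa13 (chr6:52257694-52260880) varied least of the number 13 genes tested. It measured 33.2, 41.0, 40.1 and 43.7 FPKM across Klebsiella replicates 1 to 4, against 35.5, 30.9, 51.0 and 50.2 FPKM across Lactobacillus replicates 1 to 4. The highest library was 1.65 times the lowest, and the groups overlapped. The log2 difference was -0.06 (SE 0.17, adjusted p 0.958 by limma).

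Hoxd13 (chr2:74668310-74671599) spanned a 21.1-fold range. It measured 46.3, 3.25, 2.20 and 8.03 FPKM across Klebsiella replicates 1 to 4, from 1816, 155, 89 and 346 reads. In Lactobacillus replicates 1 to 4 it was at 43.9, 19.1, 27.3 and 39.2 FPKM, from 1745, 940, 1466 and 1705 reads. All but the first of the Klebsiella libraries lay below every Lactobacillus library, while that first library was the highest of all 8. The mean was 14.95 ± 21.1 FPKM in Klebsiella and 32.4 ± 11.2 FPKM in Lactobacillus recipients (SD, n = 4 each), and the log2 difference of -1.97 (SE 0.79) did not pass the test (limma adjusted p 0.774, unadjusted p 0.0343). Leaving out Klebsiella replicate 1 gave -2.83, and leaving out the pair of libraries that stood apart gave -1.68.

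The neighbours of Hoxd13 followed it across libraries in part. Hoxd10 to Hoxd13 summed to 59.2, 4.51, 5.76 and 9.60 FPKM in Klebsiella replicates 1 to 4 and to 53.1, 23.6, 34.9 and 52.4 FPKM in Lactobacillus replicates 1 to 4, with Hoxd13 as the largest term in every library but not the only one that varied. Hoxd11 was at 7.07, 0.674, 2.11 and 0.772 FPKM in the Klebsiella libraries and at 6.19, 3.07, 4.07 and 7.08 FPKM in the Lactobacillus libraries. Its log2 difference of -1.20 (SE 0.56) did not pass the test (limma adjusted p 0.774). Hoxd12 was at 2.38 FPKM in Klebsiella replicate 1, at 0.159 to 0.185 FPKM in the other Klebsiella libraries, from 7 to 9 reads, and at 0.439 to 1.89 FPKM in the Lactobacillus libraries. Hoxd10 had its lowest level, 0.401 FPKM, in Klebsiella replicate 2 and its highest, 4.24 FPKM, in Lactobacillus replicate 4.

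Evx2, a homeobox gene next to Hoxd13 outside the cluster, was likewise low in Klebsiella replicates 2, 3 and 4. It measured 2.01, 0.519, 0.327 and 0.472 FPKM across Klebsiella replicates 1 to 4, against 2.13, 1.13, 1.86 and 2.76 FPKM across Lactobacillus replicates 1 to 4. Its log2 difference was -1.003 (SE 0.37, adjusted p 0.774 by limma). Toward the other side of the Hoxd cluster, Hoxd8 differed from this pattern and Hoxd9 differed in part. Hoxd8 was highest in Klebsiella replicate 3, at 4.65 FPKM, and in Lactobacillus replicate 2, at 4.41 FPKM, against 1.33 to 2.19 FPKM in the other 6 libraries. Hoxd9 measured 1.39, 0.463, 1.78 and 0.216 FPKM across Klebsiella replicates 1 to 4, against 0.965 to 1.47 FPKM in Lactobacillus recipients. It was thus low in Klebsiella replicates 2 and 4, and highest of all libraries in Klebsiella replicate 3.

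**Figure D2:**
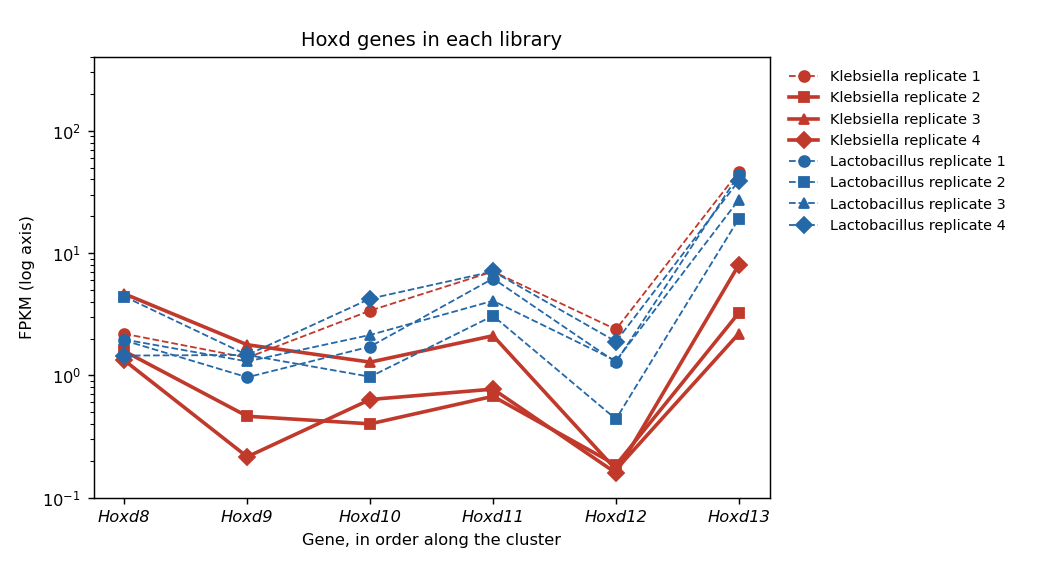
FPKM on a log axis for the 6 tested Hoxd genes, in their order along the cluster, with 1 line per library (red, Klebsiella recipients; blue, Lactobacillus recipients; solid, Klebsiella replicates 2, 3 and 4). At Hoxd13 the solid lines end between 2.20 and 8.03 FPKM and the other 5 libraries between 19.1 and 46.3 FPKM, while at Hoxd8 the lines are mixed.

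Across the 8 libraries, on log2(FPKM + 0.5), Hoxd13 had a Pearson correlation of 0.90 with Hoxd12, 0.85 with Hoxd11, 0.74 with Hoxd10 and 0.31 with Hoxd9. It was 0.79 with Hoxb13 and -0.09 with Hoxa13. Outside the family, the protein-coding genes of highest correlation with Hoxd13 were Cps1, the mitochondrial carbamoyl phosphate synthetase of the urea cycle, at 0.99, Ms4a10, a membrane-spanning protein gene, at 0.97 and Evx2 at 0.95. Their Spearman correlations with Hoxd13 were 0.98, 0.98 and 0.88. Without Klebsiella replicates 2 and 3, the libraries farthest from the median of Hoxd13, the Pearson correlations were 0.97 for Cps1 and 0.95 for both Ms4a10 and Evx2. For the Hox genes they were then 0.94 for Hoxd12, 0.99 for Hoxd11, 0.84 for Hoxd10 and 0.77 for Hoxd9. For Hoxb13 the value fell to 0.53, and for Hoxa13 it was -0.13. Cps1 measured 2.49, 0.862, 0.883 and 1.37 FPKM across Klebsiella replicates 1 to 4, against 2.36, 1.67, 2.28 and 2.34 FPKM across Lactobacillus replicates 1 to 4. These correlations describe 8 libraries, with both genes of a pair read from the same tissue piece at the same depth, and the most alike were picked from all genes tested.

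The middle of the Hoxb cluster was high in a pair of libraries and low in the rest. Hoxb6 (chr11:96292476-96301569) measured 2.97, 3.87, 40.2 and 1.16 FPKM across Klebsiella replicates 1 to 4, against 3.19, 45.2, 1.97 and 2.36 FPKM across Lactobacillus replicates 1 to 4. Klebsiella replicate 3 and Lactobacillus replicate 2 were thus far above the other 6, 1 from each group. The log2 difference was -0.06 (SE 1.16, adjusted p 0.997 by limma), and -0.02 without that pair.

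The neighbours of Hoxb6 had their highest levels in the same pair, and the excess was not even along the cluster. The mean of the pair over the mean of the other 6 libraries was 2.88 for Hoxb2, 3.95 for Hoxb3, 3.70 for Hoxb4, 5.15 for Hoxb5, 16.5 for Hoxb6, 8.96 for Hoxb7 and 20.1 for Hoxb8. It dropped to 1.32 for Hoxb9, the next gene, and was 0.638 for Hoxb13. Of the 7 genes from Hoxb2 to Hoxb8, 6 had these as their highest 2 libraries; Hoxb2 was highest in Klebsiella replicate 3 and not raised in Lactobacillus replicate 2. The pair was chosen for high Hoxb6, so these ratios are a description with no test.

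Hoxb8 measured 1.11, 1.72, 15.9 and 0.623 FPKM across Klebsiella replicates 1 to 4, against 0.633, 21.0, 0.813 and 0.616 FPKM across Lactobacillus replicates 1 to 4. Hoxb9, its neighbour, was at 26.7, 36.9, 34.7 and 21.9 FPKM in the Klebsiella libraries and at 26.6, 35.5, 23.5 and 23.1 FPKM in the Lactobacillus libraries. The step between both genes was therefore steep in 6 libraries and shallow in the pair. Hoxb9 was 21.4 to 42.1 times Hoxb8 in the 6 libraries, 2.18 times in Klebsiella replicate 3 and 1.69 times in Lactobacillus replicate 2. Hoxb2 to Hoxb8 made up 19.8% and 20.6% of the summed Hox FPKM in the pair, and 1.56% to 3.11% in the other 6.

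**Figure D3:**
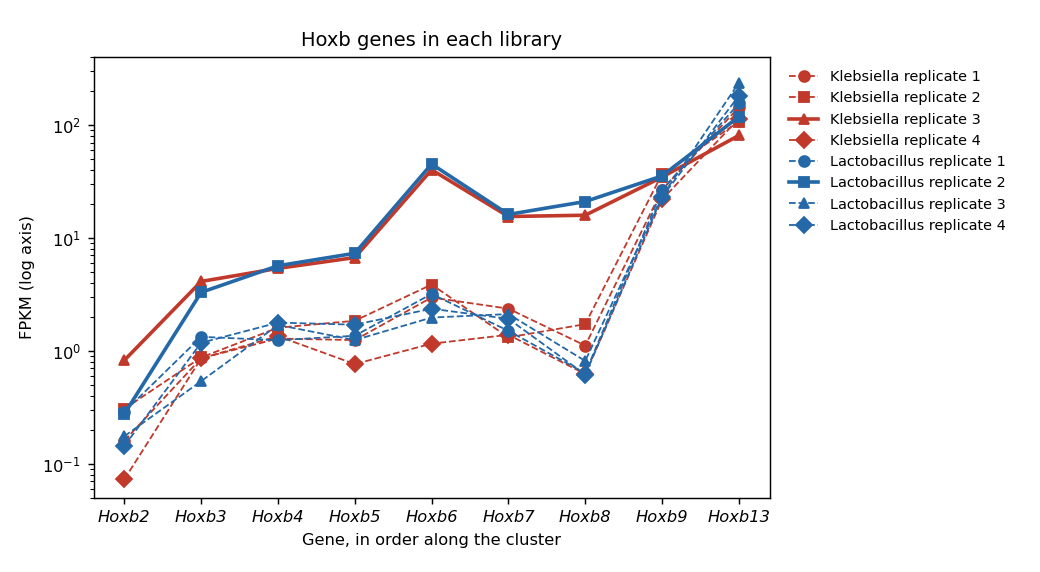
FPKM on a log axis for Hoxb2 to Hoxb13 in their order along the cluster, with 1 line per library (red, Klebsiella recipients; blue, Lactobacillus recipients; solid, Klebsiella replicate 3 and Lactobacillus replicate 2). The solid lines run above the other 6 from Hoxb3 to Hoxb8, with Hoxb6 at 40.2 and 45.2 FPKM against at most 3.87 FPKM, and join them at Hoxb9.

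Some Hox genes outside Hoxb2 to Hoxb8 had the same highest pair, and the share of all genes that did was not counted. Of the 18 other tested Hox genes, 2 had that pair as their highest libraries, Hoxd8 and, narrowly, Hoxa7. Hoxa7 was at 41.8 FPKM in Lactobacillus replicate 2, against 41.2 FPKM in Lactobacillus replicate 3. Of the 15 untested genes, 6 had that pair highest, namely Hoxc4, Hoxc6, Hoxc10, Hoxc11, Hoxd1 and Hoxd4, with no more than 23 reads in any library. The mean of the pair was 2.60 times that of the other 6 libraries for Hoxd8, while Hoxa13 was at 0.837 times and Hoxd13 at 0.381 times the mean of the other 6. Hoxc6, which was not tested, was at 0.305 FPKM in Klebsiella replicate 3 and 0.302 FPKM in Lactobacillus replicate 2 and at most 0.0630 FPKM elsewhere, from at most 6 reads.

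The protein-coding genes outside the family most alike to Hoxb6 over the 8 libraries were Osr2, Aldh1a1 and Defb37, each with a Pearson correlation of 0.98. Without the pair, the correlations over the other 6 libraries were 0.48 for Osr2, 0.83 for Aldh1a1 and 0.62 for Defb37, so all 3 rested in part on the pair. Osr2, a zinc finger transcription factor of the odd-skipped family, was at 17.1 FPKM in Klebsiella replicate 3 and 22.2 FPKM in Lactobacillus replicate 2, and at 0.0669 to 0.399 FPKM in the other 6. Aldh1a1, an enzyme that makes retinoic acid, was at 75.3 FPKM in Klebsiella replicate 3 and 63.1 FPKM in Lactobacillus replicate 2, and at 17.2 to 30.1 FPKM in the other 6. Defb37, a beta-defensin, was at 6.27 FPKM in Klebsiella replicate 3 and 8.90 FPKM in Lactobacillus replicate 2, and at most 0.532 FPKM elsewhere.

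Marker sums were set beside the pair. The 10 small-intestinal markers summed to 35.9 FPKM in Klebsiella replicate 3 and 35.8 FPKM in Lactobacillus replicate 2, and to 19.5 to 32.9 FPKM in the other 6, with Fabp1, Apoa4, Lct, Apoa1 and Gata4 listed at 0 in at least 1 library. Apob and Fabp6 made up most of this sum in every library. Apob, Fabp6, Apoa4, Lct, Apoa1 and Gata4 were not higher in both libraries of the pair than in all of the other 6. Fabp6 was at 3.58 FPKM in Klebsiella replicate 3 and 11.9 FPKM in Lactobacillus replicate 2. Slc10a2, Alpi, Sis and Fabp1 were higher in the pair than in the other 6. Slc10a2, the ileal bile acid transporter, was at 6.09 FPKM in Klebsiella replicate 3 and 6.00 FPKM in Lactobacillus replicate 2, and at most 1.15 FPKM elsewhere. Alpi, the intestinal alkaline phosphatase, measured 5.35 FPKM in Klebsiella replicate 3 and 3.18 FPKM in Lactobacillus replicate 2, with no other library above 1.49 FPKM. Sis, sucrase-isomaltase, was at 0.695 and 0.411 FPKM there and at most 0.136 FPKM elsewhere. The 10 enteric neuron and glia markers also had their highest sums in the pair, at 82.8 FPKM in Klebsiella replicate 3 and 92.2 FPKM in Lactobacillus replicate 2, against 32.5 to 78.3 FPKM in the other 6. The 9 smooth muscle markers summed to 3717 FPKM in Klebsiella replicate 3 and to 1427 FPKM in Lactobacillus replicate 2, against 976 to 2940 FPKM in the other 6, so the pair did not share a high muscle level. The 9 fibroblast markers summed to 1109 and 1029 FPKM in that pair and to 753 to 1075 FPKM elsewhere. The part of these cell types, and of the position at which each piece was cut, in the Hoxb pattern was not tested.

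No tested Hoxa gene spanned more than 3.44-fold between libraries. Hoxa5, Hoxa6, Hoxa7, Hoxa9 and Hoxa10 formed a run of high neighbours, and the low genes Hoxa2, Hoxa4 and Hoxa11 each lay beside a high one, with Hoxa3, Hoxa5, Hoxa6, Hoxa7, Hoxa9, Hoxa10 and Hoxa13 at 7.98 FPKM or more in every library, and Hoxa2, Hoxa4 and Hoxa11 at no more than 3.94 FPKM. Hoxa10, which lies beside Hoxa11, was 10.2 to 20.9 times Hoxa11, and Hoxa3 was 5.85 to 19.5 times Hoxa4. Of these genes Hoxa10 and Hoxa13 overlap no other annotated gene, while Hoxa2, Hoxa4 and Hoxa11, like the rest, each do. The part of the overlaps in these steps was not tested.

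Among the Hoxa genes the lowest log2 differences were those of Hoxa6 and Hoxa5. Hoxa6 measured 8.99, 16.9, 18.03 and 8.83 FPKM across Klebsiella replicates 1 to 4, against 13.4, 20.3, 20.4 and 22.3 FPKM across Lactobacillus replicates 1 to 4, with log2 difference -0.57 (SE 0.27, adjusted p 0.774 by limma). Hoxa5 had log2 difference -0.55 (SE 0.25, adjusted p 0.774 by limma). Both had their lowest levels in Klebsiella replicates 1 and 4, and the groups overlapped. Klebsiella replicate 4 was also lowest for the sums of the fibroblast, smooth muscle, and enteric neuron and glia markers, at 753, 976 and 32.5 FPKM, while Klebsiella replicate 1 was not low for them, at 1075, 2530 and 71.3 FPKM; their part in the Hoxa levels was not tested.

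The remaining tested Hoxa genes had log2 differences of -0.48 for Hoxa4, -0.30 for Hoxa9, -0.26 for Hoxa3, -0.24 for Hoxa10, -0.21 for Hoxa7, -0.0018 for Hoxa2 and 0.15 for Hoxa11. Hoxa9 was at 25.8 to 47.8 FPKM in Klebsiella and 33.5 to 49.7 FPKM in Lactobacillus recipients. Hoxa7 was at 24.6 to 48.2 FPKM in Klebsiella and 33.1 to 41.8 FPKM in Lactobacillus recipients. None of these passed the test, and the groups overlapped for each.

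The Hoxc cluster was all but silent. Its 9 genes together had 144 reads over all libraries, of which 92 were from Hoxc4, and its highest value was 0.568 FPKM, for Hoxc4 in Klebsiella replicate 3. Hoxc12 was listed at 0 in every library, as was Hoxb1, the first gene of its own cluster, and Hoxc13 had 1 read in all. The other untested genes included Hoxb2, Hoxd1, Hoxd3 and Hoxd4. The highest level of an untested member in any library was 0.824 FPKM, for Hoxb2 in Klebsiella replicate 3, from 32 reads. Hotair, a noncoding RNA of the Hoxc cluster known in human cells to silence Hoxd genes, was listed at 0 in every library. A count of 0 in a library allows up to 3 reads, a limit that covers counting error only.

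The comparison of recipients asked whether any Hox gene differed between the bacteria. Of the 24 genes tested, 0 passed at an adjusted p under 0.05, where 0% of all 16865 genes did (limma, two-sided, Benjamini-Hochberg over all genes). At an unadjusted p under 0.05 there were 2, Hoxb13 and Hoxd13, both lower in Klebsiella recipients, or 8.33% of 24. Of all genes 6.07% were past that limit in either direction, and 3.52% were lower in Klebsiella recipients. Voom on the recovered reads called 0 as well, with 4 at an unadjusted p under 0.05. The count of 2 became 0 without Lactobacillus replicate 3 or Lactobacillus replicate 4, 1 without Klebsiella replicate 4, 3 without Lactobacillus replicate 1, 4 without Klebsiella replicate 2, and 5 without Klebsiella replicate 1 or Klebsiella replicate 3. The groups overlapped for all 24, where they did not overlap for 2.99% of all genes.

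Of the 24 log2 differences, 21 were below 0, and those of Hoxa11, Hoxb8 and Hoxb9 were above it. The median was -0.23, against -0.02 over all genes tested, of which 53.6% were below 0. The genes share libraries and clusters, so they are not independent of each other, and this split is a description. Simulated data with 4 libraries a group gave a call for 25% of genes changed 1.5-fold, 54.7% of genes changed 2-fold and 90.9% of genes changed 4-fold, among 16613 genes. Of its 117 calls, 6 were false. The changed genes were drawn from all genes, whose median ratio of highest to lowest library was 1.75, against 3.47 for tested Hox genes. These shares therefore do not give how often a changed Hox gene would be called.

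**Figure D4:**
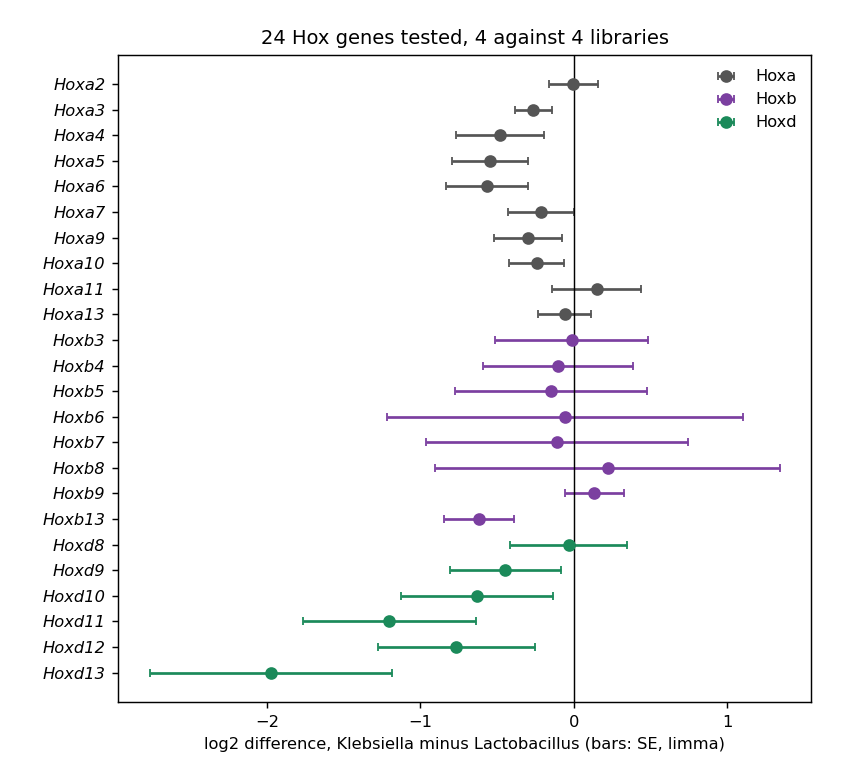
Log2 difference (Klebsiella minus Lactobacillus recipients, 4 libraries each) with its SE from limma for the 24 Hox genes tested, coloured by cluster. Hoxd13 lies farthest from 0 at -1.97, and the bars of Hoxb6 and Hoxb8 are the widest, with SEs of 1.16 and 1.12; 0 of the 24 passed the test.

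Markers of fat cells and pancreas are given beside these differences. The 8 fat markers summed to 22.4 to 35.5 FPKM in Klebsiella and 45.2 to 299 FPKM in Lactobacillus recipients. The 299 FPKM was of Lactobacillus replicate 4, and no other library was above 89.7 FPKM. Of the 7 tested all had a log2 difference below 0, with 6 at an unadjusted p under 0.05 (limma) and 0 passing. Of all genes 6.07% were past that limit in either direction and 3.52% were lower in Klebsiella recipients. The fat markers rose together and are not independent of each other. Pancreatic markers summed to 1331 FPKM in Klebsiella replicate 2 and 737 FPKM in Lactobacillus replicate 3, against 186 to 378 FPKM in the other libraries. Cela1, at 185 to 450 FPKM over all libraries, made up nearly all of the sum in those other libraries. Ctrb1 was at 418 FPKM in Klebsiella replicate 2, at 112 FPKM in Lactobacillus replicate 3 and at most 2.99 FPKM elsewhere. Without that second pair of libraries, 0 Hox genes had an unadjusted p under 0.05. The part of attached fat or pancreas in the Hox levels was not tested.

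The ranges between libraries are given beside those of all genes, as a description. The highest library exceeded the lowest by less than 2-fold for 7 of the 24 tested, Hoxa2, Hoxa3, Hoxa7, Hoxa9, Hoxa10, Hoxa13 and Hoxb9, or 29.2%, against 60.0% of all genes tested. It exceeded the lowest by more than 5-fold for 10 of the 24, or 41.7%, against 9.98%. The median ratio was 3.47, against 1.75 over all genes. The wide ones were Hoxb3, Hoxb5, Hoxb6, Hoxb7, Hoxb8, Hoxd9, Hoxd10, Hoxd11, Hoxd12 and Hoxd13, all of the Hoxb and Hoxd clusters.

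The length given to a gene mattered for the order of the levels. The length behind the deposited FPKM equalled the mean length of the annotated transcripts for 37 of the 37 Hox genes with reads, and 15 of the 39 genes have a single annotated transcript. Over all genes with several transcripts, 78.7% of 17031 matched in this way. The match is in part built in. For Hoxc8 and Hoxc13, with reads in 1 library each, the length came from the annotation. In 217 genes of the series it was multiplied by a whole number to reach that mean. Scaled by the longest transcript in place of the mean, the mean of the 8 libraries was 19.2 in place of 40.7 FPKM for Hoxa13 and 17.9 in place of 38.4 FPKM for Hoxa9. It was 26.9 in place of 28.6 FPKM for Hoxb9 and was not altered for Hoxb13, at 142.5 FPKM, or Hoxd13, at 23.7 FPKM. Hoxa13 was the second gene in order by the first measure and number 6 by the other, and Hoxb13 was first by both. Comparisons of 1 gene between libraries do not depend on this choice.

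**Figure D5:**
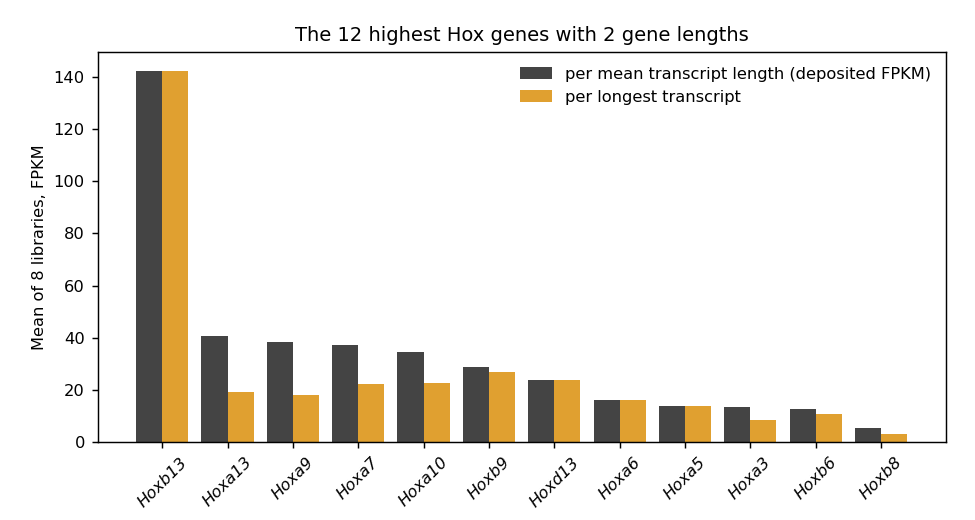
Mean FPKM over the 8 libraries of the 12 highest Hox genes, scaled by the mean transcript length as deposited (dark bars) and by the longest annotated transcript (light bars). Hoxb13 stands at 142.5 FPKM by both, while Hoxa13 falls to 19.2 FPKM by the longest transcript, against 40.7 FPKM as deposited.

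The clusters hold other transcripts, and 23 of the 39 Hox genes overlap another annotated gene, 14 of them among the 24 tested. The sources do not state whether reads were counted by strand, so reads of a Hox gene and of an overlapping or antisense gene cannot be told apart with certainty. Hoxb13, Hoxa13, Hoxd13, Hoxb7, Hoxb8 and Hoxb9 overlap none, and Hoxb6 overlaps Hoxb5os. Of 46 non-member genes inside the clusters, 19 had a mean of at least 0.5 FPKM. The 4 highest all lie in the Hoxb cluster, namely the locus of Mir196a-1, the long noncoding RNA Gm53, and the short annotations Gm27605 and Gm27898.

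Gm53 measured 46.2, 63.6, 68.4 and 49.7 FPKM across Klebsiella replicates 1 to 4, against 55.6, 74.1, 77.3 and 110 FPKM across Lactobacillus replicates 1 to 4, a log2 difference of -0.45 that did not pass the test. It showed no step at the pair that stood apart. Mir196a-1 was at 21.7 to 89.0 FPKM in Klebsiella and 44.1 to 139 FPKM in Lactobacillus recipients, from 35 to 249 reads. Libraries of long RNA do not measure the mature microRNA. Hoxb5os, antisense to Hoxb5 and Hoxb6, was at 23.2, 11.2, 31.4 and 6.73 FPKM in the Klebsiella libraries and at 15.4, 30.7, 9.95 and 15.9 FPKM in the Lactobacillus libraries, with the highest values again in Klebsiella replicate 3 and Lactobacillus replicate 2.

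The clusters encode microRNAs of the miR-196 and miR-10 families, which are known to repress Hox transcripts, and their mature forms are shown because each family is spread over different clusters with 1 shared seed. The sequences are from RefSeq on GRCm38.p6, 5′ to 3′, with the seed (bases 2 to 8) in capitals. Mir196a-1 (chr11:96265187-96265208) and Mir196a-2 (chr15:102973365-102973386) give the same mature RNA.

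miR-196a-5p, Hoxb and Hoxc clusters: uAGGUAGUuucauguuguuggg
miR-196b-5p, Hoxa cluster: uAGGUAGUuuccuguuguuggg
miR-10a-5p, Hoxb cluster: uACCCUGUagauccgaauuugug
miR-10b-5p, Hoxd cluster: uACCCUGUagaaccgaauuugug

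Counted from the 5′ end, miR-196b-5p differs from miR-196a-5p by A12C and miR-10b-5p from miR-10a-5p by U12A, both outside the seed. At their loci, Mir196b, which overlaps Hoxa9, and Mir10b, which overlaps Hoxd3 and Hoxd4, were listed at 0. Mir10a, which overlaps no Hox gene, had at most 3 reads in any library. The sources do not state how reads shared by overlapping genes were counted, so the listings at 0 do not show that these loci were silent.

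Genes that act with or on the Hox genes were described from lists chosen with earlier results known, and 0 genes of any list passed the test. Of the 9 TALE homeobox cofactors, which bind DNA together with Hox proteins, 6 had a log2 difference above 0 and 3 below, with a median of 0.12. Over the 8 libraries Pbx2 averaged 38.3 FPKM, Pknox1 12.9 FPKM, Pbx3 12.3 FPKM and Meis1 2.98 FPKM.

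Of the 8 ParaHox and flanking homeobox genes, 4 were tested, 3 with a log2 difference above 0 and 1 below. Cdx2 measured 46.4, 60.5, 93.8 and 60.5 FPKM across Klebsiella replicates 1 to 4, against 44.4, 62.4, 30.3 and 24.5 FPKM across Lactobacillus replicates 1 to 4. The groups overlapped, with the lowest values in Lactobacillus replicates 3 and 4, and the log2 difference was 0.73 (SE 0.30, adjusted p 0.774 by limma). Cdx1 was at 251 to 314 FPKM in Klebsiella and 180 to 330 FPKM in Lactobacillus recipients. Evx1, which lies beyond Hoxa13, was at 1.00 to 1.65 FPKM in Klebsiella and 0.175 to 0.958 FPKM in Lactobacillus recipients, with no overlap and log2 difference 0.83 (SE 0.26, adjusted p 0.774 by limma). Evx1 and Evx2, which flank different clusters, thus had differences of opposite sign, and neither passed the test. Cdx4, Gsx1 and Gsx2 were listed at 0 in every library.

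Polycomb proteins keep Hox genes silent and Trithorax proteins keep them active. Of the 22 Polycomb genes, 14 had a log2 difference above 0 and 8 below, with a median of 0.02. Rbbp7 was the highest, with a mean of 108 FPKM, followed by Eed at 60.9 FPKM. Cbx2, a reader subunit, was at 2.45 ± 1.32 FPKM in Klebsiella and 4.30 ± 0.765 FPKM in Lactobacillus recipients (SD, n = 4 each), with log2 difference -0.79 (SE 0.29, adjusted p 0.774 by limma). Of the 10 Trithorax and H3K27 demethylase genes, 6 were above 0 and 4 below, also with a median of 0.02. Kdm6b, a demethylase that removes the Polycomb mark, was at 37.9 ± 9.08 FPKM in Klebsiella and 26.2 ± 6.37 FPKM in Lactobacillus recipients (SD, n = 4 each), with log2 difference 0.52 (SE 0.21, adjusted p 0.774 by limma).

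Retinoic acid switches on the low-numbered Hox genes in the embryo. Of the 18 genes of its pathway, 14 were tested, 7 with a log2 difference above 0 and 7 below, with a median of 0.02. Rxrb averaged 63.3 FPKM, Rxra 44.6 FPKM, Dhrs3 36.5 FPKM and Aldh1a1 34.5 FPKM, and of these the last was the one described above as high in the pair of libraries.

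Of the 17 regional genes of the large intestine outside the family, 13 were tested, 6 with a log2 difference above 0 and 7 below. Isl1, a LIM homeobox factor, was at 1.83 to 2.91 FPKM in Klebsiella and 2.97 to 5.09 FPKM in Lactobacillus recipients, with no overlap and log2 difference -0.67 (SE 0.20, adjusted p 0.774 by limma). Car1, a carbonic anhydrase with the highest mean of the list at 1004 FPKM, was at 2342 FPKM in Klebsiella replicate 3 and 2947 FPKM in Lactobacillus replicate 2, and at 195 to 836 FPKM in the other 6. Tbx3, a T-box transcription factor, was at 10.2 and 8.99 FPKM in the same pair and at 3.36 to 4.64 FPKM in the other 6. Both, like Osr2 of the same list, were thus high in the libraries with high Hoxb6. Car4, a carbonic anhydrase of the colon surface, averaged 595 FPKM with a range of 203 to 1517 FPKM. Aqp8, a water channel, averaged 167 FPKM, and Aqp4 averaged 85.3 FPKM.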

How the data were processed

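Total RNA from frozen intestine of 8 C57BL/6 mice was sequenced after library preparation with an Illumina TruSeq kit, per the labels. The submitters' processing notes name STAR 2.5.1b and HTSeq 0.6.0, besides CASAVA, and also DESeq2 1.10.1, without saying what each did. Genome build, annotation and strand of counting: not given in the sources used here. Deposited by the authors were FPKM values for 49585 gene identifiers. FPKM for 15 genes was also deposited, under a name that marks them as differential, and 0 of these are Hox genes. In the test used here, 0 of 16865 genes passed. The authors also deposited read counts per library from their filter and mapping steps. Symbols and positions came from GENCODE M21 (GRCm38), and 259 identifiers had no match.

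The FPKM values of 26962 genes, out of 26963 detected in 2 or more libraries, were whole multiples of the value of 1 read to a relative 1e-11, and 15401002 to 21004612 reads in genes per library were recovered. Depth limits the low genes, and read numbers cover counting error only.

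Genes with a mean of at least 0.5 FPKM, 16865 in number, were compared on log2(FPKM + 0.5) with limma 3.58.1 in R 4.3.3 (trend, two-sided, Benjamini-Hochberg over all genes, threshold 0.05, Klebsiella minus Lactobacillus). On it, changes of genes near 0.5 FPKM come out too small. The fit was tested on simulated data. The rest used pandas 2.3.3 and numpy 2.4.6 in Python 3.11.15, and figures matplotlib 3.10.9. Each mouse was 1 replicate, and the groups carry the same mouse numbers.

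The members, gene lists, alternatives and the naming rule were chosen with earlier results of these data known. The rule named Hox genes with a mean of at least 0.5 FPKM, up to 4 genes of highest mean per list, the 3 protein-coding genes most alike to Hoxb6 and to Hoxd13, and the 4 highest other transcripts inside the clusters. Some genes under this rule are not reported here. Further genes were named after their values were seen, among them Meis1, Evx1, Evx2, Cbx2, Kdm6b, Isl1, Osr2, Tbx3, Slc10a2, Alpi, Sis, Hoxb5os and Hotair. Alternatives were other pseudocounts, filters, scalings and weights, a replicate block, voom on the recovered reads and left-out libraries.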

Additional observations from a re-analysis of the deposited data

Results flagged for a closer look

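Within each group of 4 libraries, a value was picked out when its gap to the nearest other library exceeded, as a share of the range of the group, Dixon's 95% critical value for 4 samples, a limit that chance passes in about 1 of 20 groups. Of 48 groups examined (24 Hox genes by 2 groups), 14 passed, and the genes are not independent of each other. The 1 of 20 holds for normally distributed values, while FPKM was used here without a log. The same count over all genes was not made. Most of the 14 fell on Klebsiella replicate 3 or Lactobacillus replicate 2, libraries already picked for high Hoxb6, so the count is a description.

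Klebsiella replicate 3 was picked out as the highest of its group 6 times, for Hoxa4 at 1.42 FPKM, Hoxb3 at 4.12 FPKM, Hoxb4 at 5.38 FPKM, Hoxb6 at 40.2 FPKM, Hoxb7 at 15.5 FPKM and Hoxb8 at 15.9 FPKM. Lactobacillus replicate 2 was picked out as the highest of its group 5 times, for Hoxb4 at 5.67 FPKM, Hoxb5 at 7.32 FPKM, Hoxb6 at 45.2 FPKM, Hoxb7 at 16.2 FPKM and Hoxb8 at 21.0 FPKM. Klebsiella replicate 1 was the highest of its group for Hoxd12 at 2.38 FPKM and Hoxd13 at 46.3 FPKM. Lactobacillus replicate 1 was the lowest of its group for Hoxa7 at 33.1 FPKM.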

How the results depend on the processing

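Under 19 alternatives, 0 Hox genes and 0 of all genes passed an adjusted p under 0.05 in each. The number of Hox genes at an unadjusted p under 0.05 was 2 as reported, 4 with voom on the recovered reads, 4 without the pair of libraries high in Hoxb6, 0 without the pair high in the pancreatic gene Ctrb1 (Klebsiella replicate 2 and Lactobacillus replicate 3), and 0 to 5 over the fits that left out 1 library each; the cause was not tested, and those fits hold fewer libraries. The labels do not say whether equal mouse numbers pair the samples. Deviations of libraries with the same number, 1 to 4, correlated at 0.189, -0.1, -0.0591 and -0.159. The best match had the same number for replicate 1 and another number for replicates 2, 3 and 4. So few values cannot exclude a shared cage or batch. With the number as a replicate block the count was 5. Of 455 log2 differences, 411 kept their direction and side of the threshold and 44, of 11 genes, changed sign, most of them near 0 as reported.

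Among these, Hoxa2 was 0.0200 at a constant total, 0.0141 with median-of-ratios factors, 0.00133 with array weights and 0.0210 without the Hoxb6-high pair. Hoxb3 was 0.0091 at a constant total and 0.0024 with median-of-ratios factors. With array weights Hoxa13 was 0.0181 and Hoxb8 -0.60. Without the Hoxb6-high pair Hoxa11 was -0.15. Without the Ctrb1-high pair Hoxa13 was 0.0261, Hoxb7 0.0319, Hoxb9 -0.0342 and Hoxd8 0.0394. Over the fits that left out 1 library each, the log2 difference ran over -0.0650 to 0.0850 for Hoxa2, -0.0807 to 0.38 for Hoxa11, -0.19 to 0.0466 for Hoxa13, -0.45 to 0.33 for Hoxb3, -0.51 to 0.30 for Hoxb4, -0.66 to 0.36 for Hoxb5, -1.01 to 0.93 for Hoxb6, -0.83 to 0.60 for Hoxb7, -0.62 to 1.27 for Hoxb8 and -0.34 to 0.25 for Hoxd8. Hoxd13 ran over -2.83 to -1.45 and Hoxb13 over -0.78 to -0.45 in the same fits. The cause was not tested for any of these.

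Depth limits the Hoxc genes and the first genes of each cluster, which had few reads.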
